A study of Mus musculus with 2 samples.

Results

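The genes described here are 10 genes of the fibroblast growth factor (FGF) and ERK pathway, chosen by name for their known place in it, of 31053 genes in the deposited matrices. They are the ligand *Fgf4*, the receptors *Fgfr1* and *Fgfr2*, the feedback inhibitors *Dusp6*, *Spry2* and *Spry4*, the ETS factors *Etv4* and *Etv5*, and the immediate-early genes *Egr1* and *Fos*. All 10 had at least 50 unique molecular identifiers (UMIs, one per captured mRNA molecule) over both libraries and could be compared. They were measured by droplet single-cell RNA-seq in E14 cells, a mouse embryonic stem cell (mESC) line, in 1 library of parental cells (WT) and 1 library of cells with both *Smad1* and *Smad5* knocked out by CRISPR-Cas9 (S1/5 dKO). *Smad1* and *Smad5* encode the transcription factors that carry bone morphogenetic protein (BMP) signals to the nucleus. Both cultures were feeder-free on gelatin in SL, a medium with fetal bovine serum and leukemia inhibitory factor (LIF), and the labels name no agent added to stimulate or block FGF signaling. The knockout cells are a CRISPR line, and which line was sequenced is not stated in the labels. With 1 library per condition no test between the conditions could be made, and each interval below is a 95% interval for counting error, which does not cover the spread between cultures.

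FGF4 is the main FGF that mESCs make, and it acts on the cells that secrete it. It binds FGF receptors with heparan sulfate, the receptors activate RAS and the RAF, MEK and ERK kinases, and ERK switches on transcription of immediate-early genes, of ETS factors of the PEA3 group and of the inhibitors that dampen the pathway again. In mESCs this pathway is known for moving cells out of naïve pluripotency toward lineage commitment.

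Barcodes were kept as cells when 1000 or more genes were detected and mitochondrial transcripts made up no more than 5% of the UMIs. This gave 2236 WT cells with 95965242 UMIs (median 38662 per cell) and 2910 cells with 109020533 UMIs (median 34548.5) in the S1/5 dKO-labelled library, with 0 cell barcodes shared. Of the targeted genes, *Smad1* had 13.4 UMIs per 1000000 UMIs (CPM) in WT and 9.17 CPM in the S1/5 dKO-labelled library, while *Smad5* had 6.05 and 9.09 CPM. The *Smad5* mRNA was thus higher in the library labelled as its knockout. Reads near the 3′ end of an mRNA cannot show whether a CRISPR edit is present, so these levels do not test the label. *Id1*, a direct target gene of BMP and SMAD1/5 signaling, was lower in the S1/5 dKO-labelled library, at 323 CPM in WT and 161 CPM. The cells carried the markers of mESCs, with summed levels of 7310 and 7549 CPM over 10 genes, among them *Pou5f1* at 1316 and 1292 CPM. The summed levels of 6 endoderm markers were 2.27 and 2.09 CPM, those of 6 mesoderm markers 2.38 and 1.96 CPM, and those of 6 fibroblast markers 0.802 and 1.05 CPM. Of the fibroblast markers, *Col3a1* was at 0 in both libraries. Of 6 formative or primed markers 5 were measured, with a median log2 ratio, the S1/5 dKO-labelled library over WT, of 0.16. Of these, 4 were above 0 and 1 was below, from −0.71 for *Zic2* to 0.22 for *Otx2*. The 6 neural markers summed to 157 and 167 CPM, of which *Tubb3* made up 141 and 152 CPM.

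The ligand gene *Fgf4* (ENSMUSG00000050917, chromosome 7 of GRCm38, 144847367 to 144865243, plus strand) was lower in the S1/5 dKO-labelled library. It had 5826 UMIs in WT, a level of 60.7 CPM (59.2 to 62.3), and 5394 UMIs in the S1/5 dKO-labelled library, a level of 49.5 CPM (48.2 to 50.8). The counting intervals of the levels do not overlap, and the log2 ratio, the S1/5 dKO-labelled library over WT, was −0.30 (−0.35 to −0.24). *Fgf4* was the lowest of the 10 genes on this scale, and 9.76% of all genes compared had a lower ratio. Its neighbors on chromosome 7 differed among themselves. The 13 neighboring genes with at least 200 UMIs had a median log2 ratio of 0.03, and 5 of them were below 0. The FGF genes on both sides of it, *Fgf3* and *Fgf15*, which lie with it within 62.9 kb, had log2 ratios of −0.46 (−0.76 to −0.16) and −0.37 (−0.58 to −0.17).

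The receptor genes differed in level and in direction. *Fgfr1* (ENSMUSG00000031565, chromosome 8, 25513654 to 25575718) encodes the main FGF receptor of mESCs. It had 25.2 CPM in WT (24.2 to 26.2, 2414 UMIs) and 22.4 CPM (21.6 to 23.4, 2447 UMIs) in the S1/5 dKO-labelled library, a log2 ratio of −0.16 (−0.25 to −0.08). *Fgfr2* (ENSMUSG00000030849, chromosome 7, 130162451 to 133123350), known as the FGF receptor of primitive endoderm and trophoblast, had 98 UMIs in WT and 160 UMIs in the S1/5 dKO-labelled library. These are levels of 1.02 CPM (0.829 to 1.24) and 1.47 CPM (1.25 to 1.71), with a log2 ratio of 0.52 (0.15 to 0.90). In a single random draw of 10000 UMIs per cell the ratio was 0.29, from 29 and 46 UMIs. The annotated *Fgfr2* locus spans other genes on its strand, such as *Nsmce4a* with 23185 and 25998 UMIs, so part of its few UMIs may be assigned with uncertainty.

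The feedback inhibitors differed by less than 1.2-fold between the libraries. *Dusp6* (ENSMUSG00000019960, chromosome 10, 99263231 to 99267489) encodes a phosphatase that inactivates ERK. It had 27.5 CPM in WT (26.5 to 28.6, 2642 UMIs) and 24.6 CPM (23.7 to 25.5, 2681 UMIs) in the S1/5 dKO-labelled library, a log2 ratio of −0.16 (−0.24 to −0.08). In a single random draw of 10000 UMIs per cell, which left 578 and 747 UMIs of *Dusp6*, the ratio was −0.0045. Over all such draws the expected shares of cells with *Dusp6* were 23.1% in WT and 21.0% in the S1/5 dKO-labelled library. *Spry2* (ENSMUSG00000022114, chromosome 14, 105891947 to 105896819) and *Spry4* (ENSMUSG00000024427, chromosome 18, 38586247 to 38601415) encode Sprouty proteins, which block receptor signals upstream of ERK. *Spry2* had 57.7 CPM in WT (56.2 to 59.2, 5534 UMIs) and 58.6 CPM (57.2 to 60.1, 6394 UMIs) in the S1/5 dKO-labelled library. *Spry4* had 26.6 CPM in both, from 2551 and 2896 UMIs. Their log2 ratios were 0.02 (−0.03 to 0.08) and −0.0010 (−0.08 to 0.08), so a difference between these libraries of the size seen for *Fgf4* lies outside both intervals.

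Of the ETS factors, *Etv4* had the highest level of the 10 genes. *Etv4* and *Etv5* encode transcription factors of the PEA3 group, which are common ERK target genes and act downstream of FGF receptors. *Etv4* (ENSMUSG00000017724, chromosome 11, 101769742 to 101785371) had 75.1 CPM in WT (73.4 to 76.9, 7210 UMIs) and 92.6 CPM (90.8 to 94.5, 10099 UMIs) in the S1/5 dKO-labelled library. The log2 ratio was 0.30 (0.26 to 0.35), and 92.5% of all genes compared had a lower one. *Etv5* (ENSMUSG00000013089, chromosome 16, 22381309 to 22439719) had 43.8 CPM (42.5 to 45.1, 4202 UMIs) and 46.9 CPM (45.6 to 48.2, 5116 UMIs), a log2 ratio of 0.10 (0.04 to 0.16). *Etv4* and *Fgf4* thus differed from WT by nearly the same amount on the log2 scale, in opposite directions.

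The immediate-early genes were rare transcripts in both cultures. *Egr1* (ENSMUSG00000038418, chromosome 18, 34859823 to 34864984) and *Fos* (ENSMUSG00000021250, chromosome 12, 85473890 to 85477273) encode transcription factors that ERK induces within minutes and whose mRNAs decay fast. *Egr1* had 130 UMIs in WT and 167 UMIs in the S1/5 dKO-labelled library, levels of 1.35 (1.13 to 1.61) and 1.53 (1.31 to 1.78) CPM. *Fos* had 126 and 139 UMIs, levels of 1.31 (1.09 to 1.56) and 1.27 (1.07 to 1.51) CPM. The log2 ratios were 0.18 (−0.16 to 0.52) for *Egr1* and −0.04 (−0.40 to 0.32) for *Fos*, and no difference in either was detectable at this depth. The cells were detached with trypsin, a step known to induce such genes. Of 6 dissociation or heat stress genes, 1 was at least 1.2-fold higher (*Hspa1b*, 1.88 and 2.48 CPM) and 2 at least 1.2-fold lower in the S1/5 dKO-labelled library (*Hspa1a*, 2.25 and 1.62 CPM, and *Atf3*, 1.38 and 0.862 CPM), and their part in the values of *Egr1* and *Fos* was not tested.

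Among the 10 genes, 2 were at least 1.2-fold higher in the S1/5 dKO-labelled library (*Fgfr2* and *Etv4*), 1 was at least 1.2-fold lower (*Fgf4*) and 0 were at least 2-fold apart. In a single random draw of 10000 UMIs per cell *Fgf4* had a log2 ratio of −0.26, from 1318 and 1426 UMIs. In that draw 0 of the genes were at least 1.2-fold lower. Over all 13654 genes with at least 50 UMIs, 9.13% were at least 1.2-fold higher, 11.4% at least 1.2-fold lower and 1.3% at least 2-fold apart. The median log2 ratio of the 10 genes was 0.01, against −0.0069 over all genes. In WT the order of the levels was *Etv4*, *Fgf4*, *Spry2*, *Etv5*, *Dusp6*, *Spry4*, *Fgfr1*, *Egr1*, *Fos* and *Fgfr2*, on a scale that counts each molecule once and is not divided by gene length. The levels of *Fgf4* and *Spry2* (narrowly), of *Dusp6* and *Spry4*, of *Spry4* and *Fgfr1*, and of *Egr1*, *Fos* and *Fgfr2* overlapped with their neighbors in that order within counting error. In the S1/5 dKO-labelled library *Fgf4* was below *Spry2*, with intervals that do not overlap, and *Spry4* was above *Dusp6*. Summed over the 10 genes the level was 320 CPM in WT and 326 CPM in the S1/5 dKO-labelled library.

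**Figure D1:**
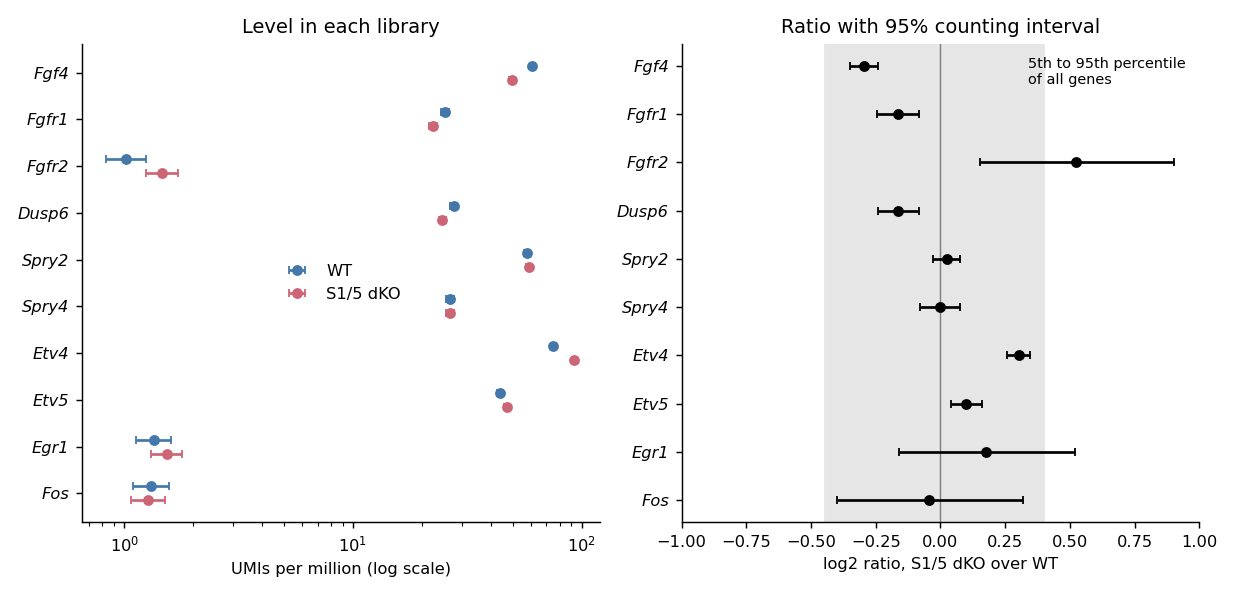
Left, level of each gene in CPM on a log axis, with WT in blue, the S1/5 dKO-labelled library in red and bars for the exact 95% Poisson interval. Right, log2 ratio, the S1/5 dKO-labelled library over WT, with its 95% counting interval, and a gray band from the 5th to the 95th percentile of all genes with at least 50 UMIs (−0.44 to 0.40), where only *Fgfr2* at 0.52 lies outside the band. Genes of few UMIs widen this band. Over genes with at least 500 UMIs it would run from −0.28 to 0.25, with *Fgf4* at −0.30 and *Etv4* at 0.30 outside it.

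The ratios were also taken within cell cycle phases, called from S and G2/M gene lists after each cell was thinned at random to 10000 UMIs. The call of Seurat put 578 WT cells in G1, 493 in S and 1122 in G2/M, and 645, 728 and 1470 cells of the S1/5 dKO-labelled library. *Fgf4* had log2 ratios of −0.35 (−0.48 to −0.23) in G1, −0.30 (−0.42 to −0.19) in S and −0.28 (−0.35 to −0.21) in G2/M. *Etv4* had 0.24 (0.15 to 0.34), 0.40 (0.30 to 0.50) and 0.29 (0.23 to 0.35). For both genes the direction was thus the same in the 3 phases. *Spry4* was higher in S, at 0.20 (0.04 to 0.37), and had intervals across 0 in G1 and G2/M.

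Stretches of the promoters of 4 of the genes are shown, to set the sequence beside the values: *Fgf4* as the gene with the lowest ratio, *Dusp6* and *Spry2* as feedback inhibitors, and *Fos* as the immediate-early gene with a known compact control region. Each is the 250 bases before the annotated start, from RefSeq on GRCm38.p6, 5′ to 3′ on the strand of the gene. RefSeq promoters were matched for 6 of the 10 genes, *Fgf4*, *Fgfr2*, *Dusp6*, *Spry2*, *Etv5* and *Fos*, with 2 starts for *Etv5*. The RefSeq starts of *Fgf4*, *Fgfr2* and *Etv5* lie inside the gene spans given above, which come from another annotation, GENCODE. Distances below are counted from the RefSeq starts. Capitals mark GGAAGT (an ETS motif), TGACGT (the core of a CRE), TGANTCA (an AP-1 motif) and GGCGCC (a GC-rich sequence that SMAD1/5 bind), searched on both strands.
Fgf4 (chr7:144861136-144861385, plus strand): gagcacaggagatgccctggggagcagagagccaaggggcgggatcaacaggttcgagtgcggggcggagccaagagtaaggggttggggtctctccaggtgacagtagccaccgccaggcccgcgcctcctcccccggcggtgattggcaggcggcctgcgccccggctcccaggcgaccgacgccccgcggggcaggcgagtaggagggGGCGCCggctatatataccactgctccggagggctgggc
Dusp6 (chr10:99262981-99263230, plus strand): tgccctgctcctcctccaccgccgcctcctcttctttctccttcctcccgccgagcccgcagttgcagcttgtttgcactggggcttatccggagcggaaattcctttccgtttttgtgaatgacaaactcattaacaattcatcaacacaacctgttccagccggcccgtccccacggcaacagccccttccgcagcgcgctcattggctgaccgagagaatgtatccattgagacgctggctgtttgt
Spry2 (chr14:105896820-105897069, minus strand): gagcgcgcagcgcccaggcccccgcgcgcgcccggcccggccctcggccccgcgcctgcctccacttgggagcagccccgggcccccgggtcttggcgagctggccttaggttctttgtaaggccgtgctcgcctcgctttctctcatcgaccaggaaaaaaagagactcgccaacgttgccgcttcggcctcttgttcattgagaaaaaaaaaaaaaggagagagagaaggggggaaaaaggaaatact
Fos (chr12:85473640-85473889, plus strand): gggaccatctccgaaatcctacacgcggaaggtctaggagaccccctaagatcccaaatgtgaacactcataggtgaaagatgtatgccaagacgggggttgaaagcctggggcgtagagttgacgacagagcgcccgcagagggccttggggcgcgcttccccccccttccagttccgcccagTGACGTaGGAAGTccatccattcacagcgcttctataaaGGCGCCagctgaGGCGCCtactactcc

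The *Fgf4* promoter stretch held 1 GGCGCC, which begins 39 bases before the start. That of *Fos* held GGCGCC 2 times, 27 and 15 bases before the start, beside TGACGT at 66 bases and GGAAGT at 59 bases before it. The stretches of *Dusp6*, *Spry2* and *Fgfr2* held none of the 4 motifs, which says only that these letters are not in this window. Of the starts of *Etv5*, the first had 1 GGCGCC and the second 1 GGAAGT. Among all 32851 promoters of the table, 9.59% held GGCGCC, 19.7% GGAAGT, 6.47% TGACGT and 6.75% TGANTCA in the same 250 bases. None of the motifs overlapped another where it is printed.

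The wider pathway was described with lists of the same roles, and most of its genes were less than 1.2-fold apart. Its counts are to be read beside the 9.13% of all genes that were at least 1.2-fold higher and the 11.4% that were at least 1.2-fold lower. Of 21 other FGF genes, 9 had at least 50 UMIs over both libraries, of which 2 were at least 1.2-fold higher and 2 at least 1.2-fold lower in the S1/5 dKO-labelled library, with a median log2 ratio of −0.02. *Fgf17*, a ligand of the FGF8 group, was the highest of them at 35.2 and 34.7 CPM. The higher genes were *Fgf10* (0.208 and 0.330 CPM, log2 ratio 0.66 with an interval from −0.16 to 1.53) and *Fgf18* (3.04 and 4.27 CPM, 0.49, 0.27 to 0.70), and the lower genes were *Fgf3* and *Fgf15*. Among 16 other receptors, co-receptors and heparan sulfate genes, 13 were measured, 1 was higher (*Fgfr4*, 0.396 and 0.550 CPM) and 3 were lower. The lower ones were *Fgfbp3* (0.834 and 0.596 CPM), the glypican gene *Gpc4* (7.08 and 5.10 CPM, log2 ratio −0.47) and *Ext2*, which encodes an enzyme that extends heparan sulfate (13.8 and 11.1 CPM, −0.31). Of 21 genes from the receptor adaptors to ERK, 0 were at least 1.2-fold higher and 4 lower, *Frs3* (−0.29), *Shc1* (−0.27), *Braf* (−0.27) and *Sos2* (−0.39). *Map2k2*, which encodes a kinase that activates ERK, had the highest log2 ratio of the cascade at 0.21 (0.18 to 0.24).

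Of 16 other feedback inhibitors, 15 were measured, 2 were at least 1.2-fold higher and 1 was lower, with a median of −0.07. The higher ones were the phosphatase genes *Dusp2* (1.31 and 1.63 CPM, log2 ratio 0.31, −0.02 to 0.66) and *Dusp4* (384 and 530 UMIs, 0.28, 0.09 to 0.47). The lower one was *Dusp9*, which encodes a phosphatase of ERK known as a BMP target gene in mESCs. It had 37.2 CPM in WT and 25.4 CPM in the S1/5 dKO-labelled library, a log2 ratio of −0.55 (−0.62 to −0.48), which was larger in size than that of any of the 10 genes. Among 11 ETS and SRF factors, 0 were at least 1.2-fold higher and 1 was lower, *Ets1* with 44 and 24 UMIs (log2 ratio −1.06, −1.84 to −0.31). Of 20 measured genes among 22 other immediate-early genes, 1 was higher (*Maff*, 0.40) and 6 were lower, where 9.13 and 11.4% of all genes were. These 6 were *Fosl2* (−0.70), *Atf3* (−0.67), *Cyr61* (−0.58), *Jund* (−0.50), *Ier5* (−0.29) and *Nr4a1* (−0.26). *Jund* lies on chromosome 8 among genes that were all lower in the S1/5 dKO-labelled library, with 20 of its 20 nearest genes below 0 and a median of −0.52, so its value cannot be told apart from that of its neighborhood. The immediate-early genes of highest level, *Ier2* (231 and 251 CPM), *Mcl1* (206 and 217 CPM) and *Junb* (56.4 and 64.4 CPM), had log2 ratios of 0.12, 0.08 and 0.19.

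**Figure D2:**
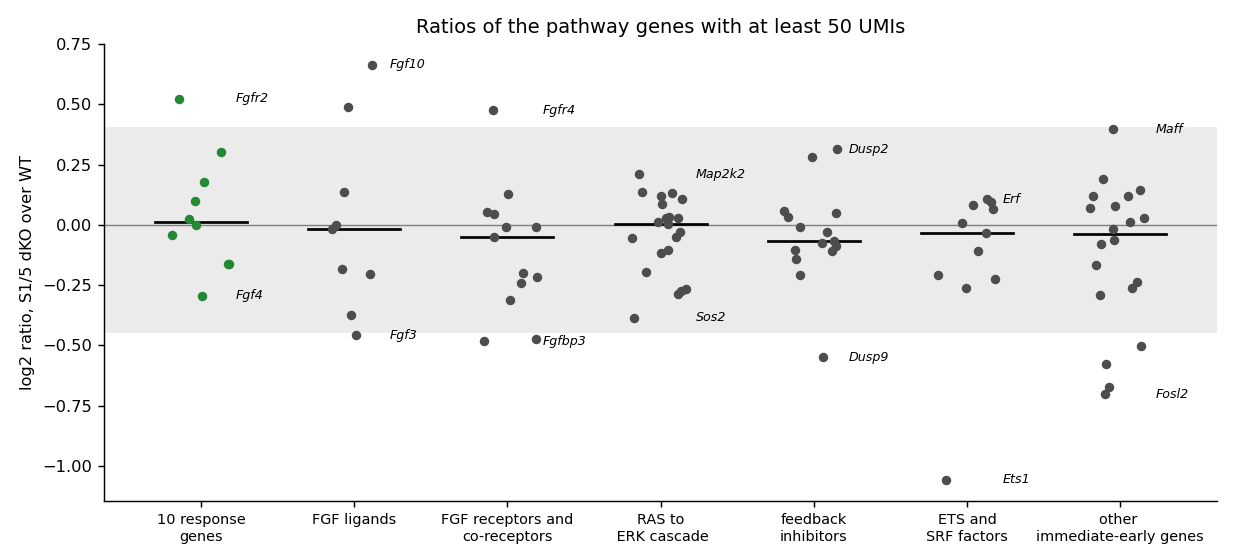
Log2 ratio, the S1/5 dKO-labelled library over WT, of each gene with at least 50 UMIs, for the 10 genes (green) and the 6 wider lists (gray), with a line at the median of each list, names at its highest and lowest gene and a gray band from the 5th to the 95th percentile of all genes. The medians lie between −0.07 and 0.01, and the widest values belong to genes of few UMIs such as *Ets1* at −1.06 and *Fosl2* at −0.70.

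To compare how many cells carried a transcript, each cell was thinned at random to 10000 UMIs, which kept 2193 WT cells and 2843 cells of the S1/5 dKO-labelled library. *Etv4* was detected in 48.5% of WT cells (46.4 to 50.6%) and in 56.6% of the S1/5 dKO-labelled cells (54.8 to 58.5%). *Fgf4* was detected in 41.8% (39.7 to 43.9%) and 35.9% (34.2 to 37.7%). Without thinning the shares were 83.1 and 87.0% for *Etv4*, and 81.5 and 70.8% for *Fgf4*. Each of these mRNAs was thus seen in most cells when all their UMIs were counted. *Spry2* was detected in 40.9 and 43.2% of the thinned cells and *Etv5* in 35.1 and 36.5%. *Fgfr1*, *Dusp6* and *Spry4* were each detected in 19.5 to 22.8% of them.

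*Fgfr2*, *Egr1* and *Fos* were detected in 1.32 to 1.79% of the thinned cells and in 4.11 to 4.70% of all cells without thinning, and the most UMIs of *Egr1* in 1 cell were 5 in WT and 7 in the S1/5 dKO-labelled library. No cell type of these cultures is known to lack the 10 genes. Instead, the background from free RNA was read in cell-free droplets, taken as barcodes holding from 10 to 100 UMIs, where the mean UMIs of each gene were 0.0251 to 0.0951% of those in a cell. These shares follow largely from the choice of barcodes with few UMIs. They do not show how the share of a gene in free RNA compares with its share in cells. A cell carried a median of 2 of the 10 mRNAs at 10000 UMIs in both libraries, and 148 WT cells and 168 S1/5 dKO-labelled cells carried 0 of them.

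**Figure D3:**
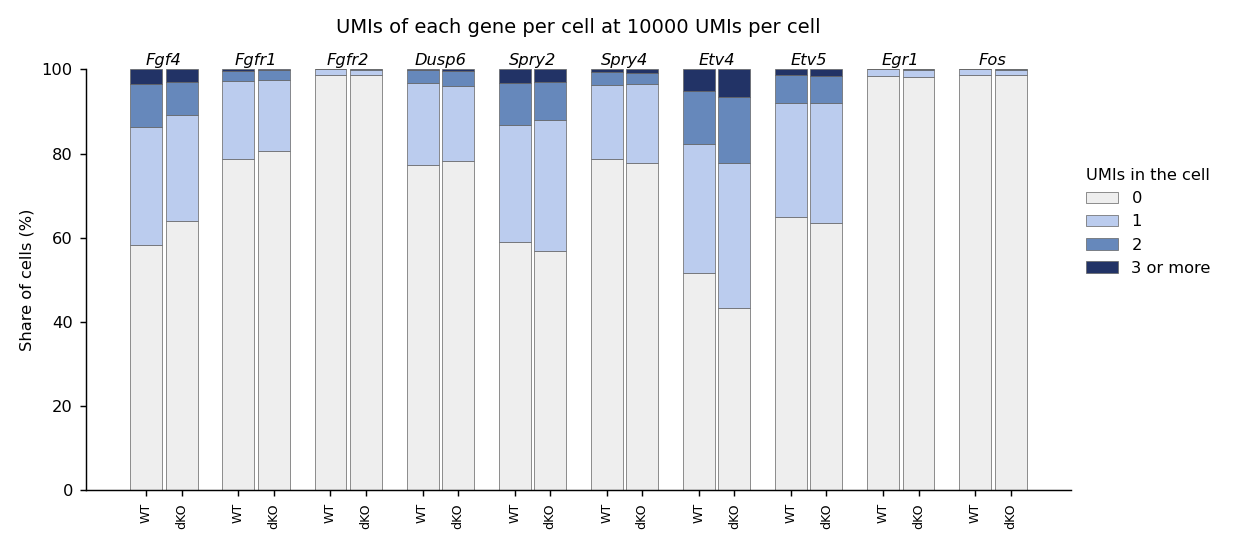
Share of cells (in percent) with 0, 1, 2 or at least 3 UMIs of each gene, after thinning every cell to 10000 UMIs, in 2193 WT cells and 2843 cells of the S1/5 dKO-labelled library (dKO). The dark part of the *Etv4* bars, cells with at least 3 UMIs, was 5.15% in WT and 6.68% in the S1/5 dKO-labelled library, and for *Fgf4* it was 3.47 and 2.92%.

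The spread over cells was read as the variance divided by the mean of the thinned UMIs, which is near 1 where counting alone sets it. *Fgf4* had 1.21 in WT and 1.23 in the S1/5 dKO-labelled library, *Spry2* 1.21 and 1.19, *Etv4* 1.18 and 1.14, and *Spry4* 1.13 and 1.14. Genes within 1.5 times the same mean had medians of 1.04 to 1.06, and 80.3 to 94.1% of them had a smaller value than these 4 genes. *Etv5* and *Fgfr1* were close to genes of like mean, at 1.05 and 1.05 in WT and 1.07 and 1.04 in the S1/5 dKO-labelled library. *Dusp6* had 1.02 in WT and 1.12 in the S1/5 dKO-labelled library. For *Egr1* the values were 1.04 and 1.31.

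Covariation was measured in each library on its own, as Pearson's r across cells of the residual UMIs given the total UMIs of the cell. The cells of a library share culture, capture and sequencing, and r is lowered by sparse counts, so these values are descriptions. *Spry2* and *Spry4* had 0.14 in WT and 0.13 in the S1/5 dKO-labelled library. *Dusp6* and *Spry4* had 0.11 and 0.12, *Dusp6* and *Spry2* 0.13 and 0.08, and *Dusp6* and *Etv4* 0.15 and 0.08. On the log2 of UMIs thinned to 10000 per cell, the r of *Spry2* and *Spry4* was 0.08 and 0.02, that of *Dusp6* and *Spry4* 0.04 and 0.05, that of *Dusp6* and *Spry2* 0.02 and 0.05, and that of *Dusp6* and *Etv4* 0.07 and 0.04. The r of these pairs was thus small in both libraries and depended on the form of the counts. *Etv4* and *Etv5*, of the same protein group, had −0.02 and −0.03. *Egr1* and *Fos* had 0.13 and 0.17, and 0.02 and 0.13 after thinning. For *Fgf4*, the r with the other 6 genes of at least 500 UMIs per library lay between −0.03 and 0.09 in both libraries.

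These values were set beside the r of each gene with 7984 genes of at least 500 UMIs per library. Of the 21 pairs among 7 of the 10 genes, 5 in WT and 4 in the S1/5 dKO-labelled library were above the 95th percentile for both genes of the pair, and 3 pairs were above it in both libraries. The 3 pairs were *Spry2* with *Spry4*, *Dusp6* with *Spry4*, and *Dusp6* with *Etv4*. For *Dusp6* in WT, 6 of the 7984 genes had a higher r than *Etv4*, 22 a higher one than *Spry2* and 42 a higher one than *Spry4*. In the S1/5 dKO-labelled library these counts were 211, 172 and 23. There the r of *Dusp6* with *Spry2* was above the 95th percentile for *Dusp6* but not for *Spry2*.

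**Figure D4:**
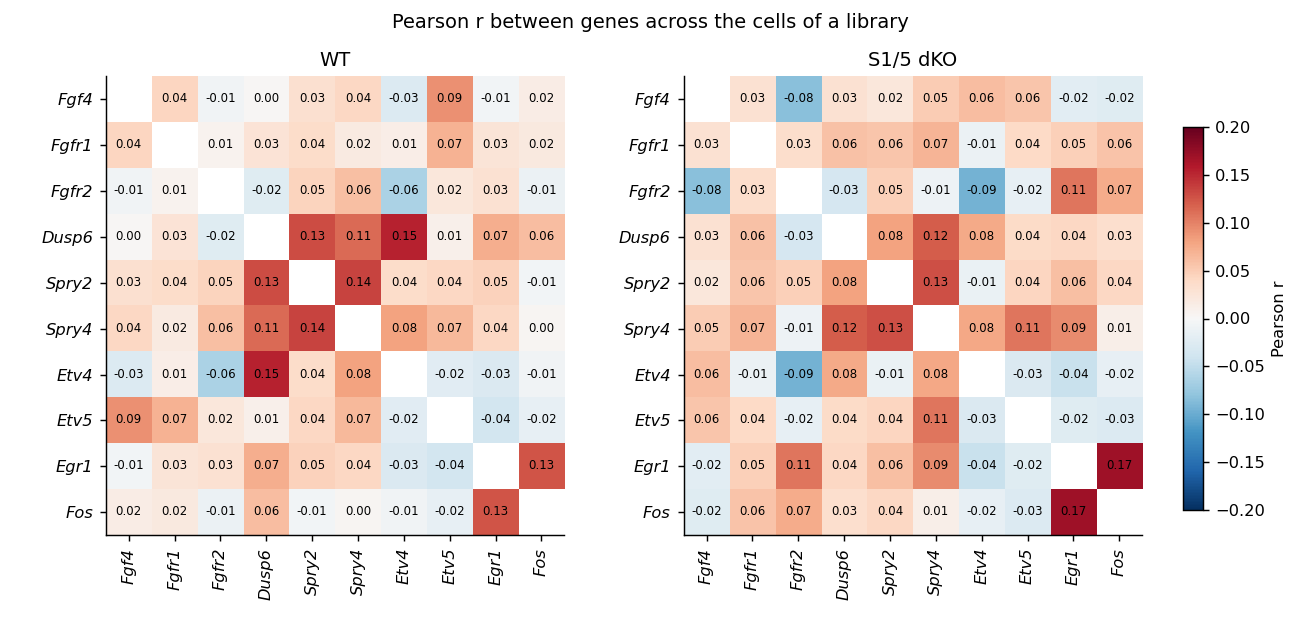
Pearson's r between each pair of the 10 genes across 2236 WT cells (left) and 2910 cells of the S1/5 dKO-labelled library (right), on a color scale from −0.2 (blue) to 0.2 (red), with the value in each square. The block of *Dusp6*, *Spry2* and *Spry4* runs from 0.08 to 0.14 here, and from 0.02 to 0.08 on the log2 of thinned UMIs.

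Cells in which both *Egr1* and *Fos* were seen were few. In WT, 98 cells had *Egr1* UMIs and 105 had *Fos* UMIs, and 11 had both, which is 11.2% of the *Egr1* cells (5.74 to 19.2%) against 4.40% of the cells without *Egr1*. In the S1/5 dKO-labelled library, 9 cells had both, 6.92% of the 130 *Egr1* cells (3.21 to 12.7%) against 4.06% of the others. The interval in WT lies above the share in other cells and that in the S1/5 dKO-labelled library does not. The *Egr1* cells had a median of 40831 UMIs in WT and 32410 UMIs in the S1/5 dKO-labelled library.

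The genes with the most similar pattern across 2236 WT cells and 2910 S1/5 dKO-labelled cells, those for which the lower of both r was highest, were taken for the 7 of the 10 genes with at least 500 UMIs per library. *Etv4* had the highest such values, with *Ccnd3* (0.35 in WT and 0.33 in the S1/5 dKO-labelled library), *Mkrn1* (0.35 and 0.28) and *Aplp1* (0.33 and 0.26). *Fgf4* was most like *Zfp990* (0.28 and 0.26), *Akap12* (0.25 and 0.29) and *Rest* (0.27 and 0.25). *Dusp6* and *Spry4* shared *Klf5* (0.17 and 0.18 with *Dusp6*, 0.16 and 0.17 with *Spry4*) and *Gbx2* (0.16 and 0.15, 0.20 and 0.16) among their top 3, to which *Smad7* was added for *Dusp6* and *Jarid2* for *Spry4*. *Spry2* was most like *Cbx3* (0.27 and 0.27), *Ncoa3* and *Rrn3*, *Etv5* most like *Jarid2* (0.16 and 0.16), *Nedd4* and *Npepps*, and *Fgfr1* most like *Plk2* (0.18 and 0.19), *Mdm2* and *Perp*.

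Relations of the 10 genes with mESC markers, most of them of the naïve state, were mostly weak, and the largest were those of *Fgf4*. Its r was 0.19 in WT and 0.22 in the S1/5 dKO-labelled library with *Nanog*, 0.19 and 0.26 with *Zfp42*, and 0.19 and 0.22 with *Tbx3*, 3 genes of naïve mESCs. Over 7984 genes the 95th percentile of its r was 0.138 in WT and 0.124 in the S1/5 dKO-labelled library. Of the other mESC markers, *Esrrb*, *Klf4* and *Tfcp2l1* were also above it in both libraries, and *Dppa5a* (0.06 and 0.14) in the latter only. *Sox2* (0.137 and 0.119), *Pou5f1* (0.03 and 0.09) and *Klf2* (0.08 and 0.09) were not above it. Such relations were not particular to *Fgf4*. *Etv4* was above its 95th percentile (0.073 and 0.068) with *Dppa5a* (0.17 and 0.16), *Pou5f1* (0.12 and 0.14) and *Tbx3* (0.09 and 0.15). Its r was negative with *Sox2* (−0.07 and −0.10) and *Klf2* (−0.13 and −0.05). *Spry2* (0.17 and 0.19), *Spry4* and *Etv5* were above theirs with *Sox2* in both libraries. In cells without a *Nanog* UMI at 10000 UMIs (701 WT cells), *Fgf4* had 53.8 CPM in WT, against 63.9 CPM in the 1492 cells with one. In the S1/5 dKO-labelled library it had 42.2 CPM in 954 cells without and 53.1 CPM in 1889 cells with *Nanog*. The log2 ratios, without over with *Nanog*, were −0.25 (−0.33 to −0.17) and −0.33 (−0.42 to −0.25). *Egr1* went the other way, at 0.50 (−0.04 to 1.02) in WT and 1.12 (0.66 to 1.57) in the S1/5 dKO-labelled library, from 50 and 85 UMIs in the cells without *Nanog*. It was not alone in this. In the S1/5 dKO-labelled library *Fgfr2* (0.67, 0.19 to 1.13), *Fos* (0.63, 0.12 to 1.13), *Spry2* (0.21, 0.14 to 0.29), *Fgfr1* (0.20, 0.07 to 0.32) and *Dusp6* (0.13, 0.01 to 0.25) were also higher in cells without *Nanog*, and *Etv4* was lower, at −0.16 (−0.23 to −0.10). In WT the intervals of these 6 genes crossed 0. *Etv5* was lower in WT cells without *Nanog*, at −0.13 (−0.22 to −0.03). In the S1/5 dKO-labelled library its interval crossed 0, at −0.03 (−0.11 to 0.06).

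The BMP target gene *Id1* had a relation to *Etv4* and *Dusp6* that differed between the libraries. The r of *Etv4* with *Id1* was −0.09 in WT and 0.26 in the S1/5 dKO-labelled library, and that of *Dusp6* with *Id1* was 0.02 and 0.16. Among 7984 genes, 0 had a larger difference in r with *Etv4* (the S1/5 dKO-labelled library minus WT) than *Id1*, and 0 a larger one with *Dusp6*. The 5th to 95th percentile of these differences ran from −0.05 to 0.05 for both genes. The next largest differences with *Etv4* were those of *Dusp9* and of *Id3*, another BMP target gene. Their r with *Etv4* was −0.06 and −0.15 in WT, and 0.11 and −0.0037 in the S1/5 dKO-labelled library. With UMIs thinned to 10000 per cell the r of *Etv4* with *Id1* was −0.03 and 0.13. *Spry4* had an r of 0.12 and 0.14 with *Id1*.

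The levels in these same cells were then given by their *Id1* UMIs at 10000 UMIs, a grouping chosen after the correlations were seen, which is no independent support for them. In the S1/5 dKO-labelled library, *Etv4* had 76.3 CPM in cells with no *Id1* UMI (1260 cells), 94.4 with 1 (629 cells), 102 with 2 (380 cells), 111 with 3 to 4 (340 cells) and 125 CPM with 5 or more (234 cells). In WT the corresponding levels were 72.9 (631 cells), 77.9 (448 cells), 77.9 (292 cells), 82.5 (323 cells) and 69.0 CPM (499 cells). *Etv4* was thus higher in each successive *Id1* class of the S1/5 dKO-labelled library, and in WT the class with most *Id1* had the lowest level, with an interval (65.6 to 72.6 CPM) that overlaps that of the class with none (69.7 to 76.2 CPM). Cells without *Id1* were close between the libraries, with a log2 ratio of 0.07 (−0.01 to 0.15), and the ratio was 0.28, 0.39 and 0.43 in the middle classes and 0.85 (0.74 to 0.96) in cells with 5 or more *Id1* UMIs.

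Compared within a library, cells with 3 or more *Id1* UMIs against cells with none had a log2 ratio for *Etv4* of 0.03 (−0.06 to 0.11) in WT and 0.61 (0.54 to 0.68) in the S1/5 dKO-labelled library. In the phases G1, S and G2/M it was 0.09, −0.16 and 0.06 in WT and 0.41, 0.51 and 0.72 in the S1/5 dKO-labelled library. Leaving out cells with over 2 times the median UMIs gave −0.02 and 0.60. The median UMIs of cells with none and with 3 or more *Id1* UMIs were 38664 and 38650.5 in WT, and 33871.5 and 37391 in the S1/5 dKO-labelled library. The levels are scaled to the total UMIs of each class, and the part of this gap in depth in the result was not tested.

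The other genes followed *Id1* in other ways. *Dusp6* was higher in cells with 3 or more *Id1* UMIs in both libraries, by a log2 ratio of 0.24 (0.10 to 0.38) in WT and 0.54 (0.40 to 0.68) in the S1/5 dKO-labelled library. Within WT this difference in *Dusp6* was 0.50 in G1, 0.42 in S and 0.06 (−0.13 to 0.26) in G2/M. For *Spry4* the ratios were 0.47 (0.33 to 0.62) and 0.45 (0.32 to 0.59). *Spry2* did not differ detectably, at −0.02 (−0.11 to 0.08) and −0.03 (−0.12 to 0.07). *Fgf4* had 0.13 (0.04 to 0.22) and 0.30 (0.20 to 0.40), and *Etv5* −0.17 (−0.28 to −0.06) and 0.07 (−0.03 to 0.18). *Fgfr2* was lower in the *Id1*-high cells of the S1/5 dKO-labelled library, with 14 UMIs there against 103 UMIs in the cells without *Id1*, a log2 ratio of −1.92 (−2.84 to −1.11). In WT it was 0.36 (−0.35 to 1.09), from 48 and 27 UMIs. Between the libraries, *Fgf4* had a log2 ratio of −0.43 (−0.53 to −0.34) in cells without *Id1* and −0.37 (−0.52 to −0.22) in those with 5 or more UMIs of it. In the classes between, with 1, 2 and 3 to 4 *Id1* UMIs, it was smaller in size, at −0.09 (−0.21 to 0.03), −0.12 (−0.27 to 0.03) and −0.13 (−0.27 to 0.01), and the intervals cross 0. As for *Etv4*, these classes were not matched in *Id1* level between the libraries.

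**Figure D5:**
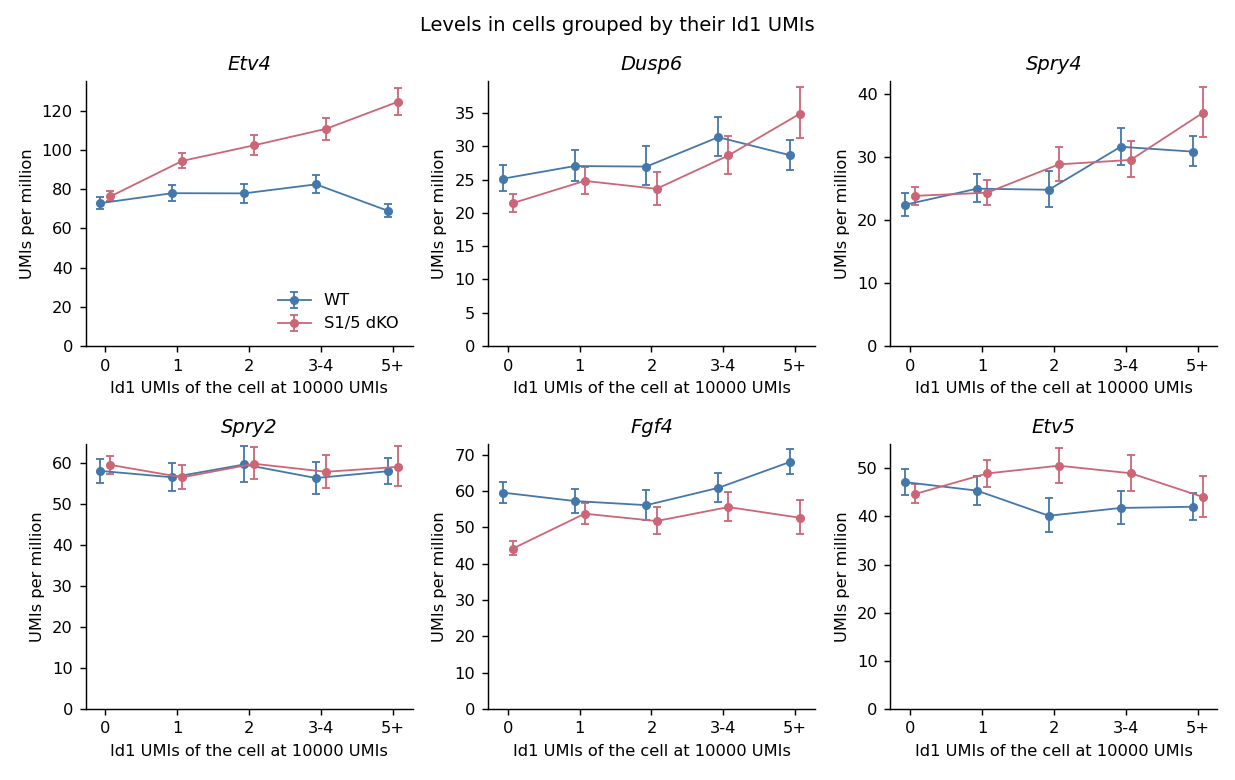
Level in CPM of 6 of the genes in cells with 0, 1, 2, 3 to 4 or at least 5 *Id1* UMIs at 10000 UMIs per cell, in WT (blue) and the S1/5 dKO-labelled library (red), with exact 95% Poisson intervals. *Etv4* runs from 76.3 to 125 CPM along the classes of the S1/5 dKO-labelled library and between 69.0 and 82.5 CPM in WT, *Spry4* runs from 22.4 to 30.9 CPM in WT and from 23.8 to 37.0 CPM in the S1/5 dKO-labelled library, and *Spry2* is level.

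Cells with UMIs of both *Sp5*, a Wnt target gene, and *Fgfbp1*, which encodes a protein that releases FGFs from the matrix, differed from the rest in several of the genes. There were 26 such cells in WT and 85 in the S1/5 dKO-labelled library. *Fgfr2* had 4.67 CPM (1.51 to 10.9, 5 UMIs) in them in WT and 7.09 CPM (4.50 to 10.6, 23 UMIs) in the S1/5 dKO-labelled library, against 0.982 and 1.30 CPM in all other cells. *Etv4* had 53.2 and 63.8 CPM in them, against 75.4 and 93.6 CPM in the others, and *Fgf4* had 44.8 and 26.2 CPM, against 61.0 and 50.3 CPM. The log2 ratios, these cells over the others, were 2.25 (0.59 to 3.52) and 2.45 (1.74 to 3.09) for *Fgfr2*, −0.50 and −0.55 for *Etv4*, and −0.44 (−0.89 to −0.04) and −0.94 (−1.27 to −0.63) for *Fgf4*. With these cells left out, an alternative added after the data were seen, *Fgfr2* had a log2 ratio of 0.40, *Etv4* of 0.31 and *Fgf4* of −0.28 between the libraries.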

How the data were processed

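Single-cell RNA-seq was analysed from 1 WT and 1 S1/5 dKO library of E14 mESCs, prepared with the Chromium 3′ v3 kit. Alignment to mm10 and UMI counting were done by the authors with Cell Ranger 3.0.2. The deposited values are raw UMI counts, one per gene and barcode. Reads from overlapping genes may be assigned ambiguously, and no doublets were removed. Cells were kept as in the paper's filter, a minimum of 1000 genes and a maximum of 5% mitochondrial UMIs. UMIs were summed over cells and divided by the total UMIs (CPM), and ratios were compared over genes with at least 50 UMIs. Intervals are exact 95% Poisson or binomial intervals, cover counting error only and leave out the spread between cultures. Depth, a median of 38662 and 34548.5 UMIs per cell, limits genes near 100 UMIs.

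Thinning drew 10000 UMIs per cell without replacement. Correlations used Pearson residuals given the total UMIs of the cell. Phases were called with 43 S and 54 G2/M genes. The planned scanpy call put 22 WT cells and 24 cells labelled S1/5 dKO in G1, so a Seurat call was added. Positions are those of GENCODE M21, in which all 10 genes were matched, and promoters those of RefSeq. Scripts were tested on simulated data. Versions were Python 3.11.15, numpy 2.4.6, scipy 1.17.1, pandas 2.3.3, matplotlib 3.10.9, scanpy 1.11.5, R 4.3.3, Seurat 5.3.0 and edgeR 4.0.16, the last for TMM scaling.

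The 10 genes, the wider lists and the marker splits were chosen with earlier results of these data known. Beside the 10 genes, the genes named are the targeted genes, genes of the wider lists, and the 3 genes most like each gene with at least 500 UMIs per library. *Id1* was singled out by its correlations after these were seen, and *Id3* was named beside it. Alternatives covered the cell filters, cells of high UMIs, per-cell means, thinning, scaling, phases, the minimum of UMIs and the form of the correlation.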

Additional observations from a re-analysis of the deposited data

How the results depend on the processing

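No paired analysis was possible because each condition has 1 library, and for the same reason no replicate could be left out. Of the log2 ratios computed for the 10 genes under alternatives, 112 lay within the counting interval of the reported value and 7 outside it. The phases called by scanpy, with 22 WT cells in G1, gave mean log2 ratios of −0.64 for *Fgf4*, −0.015 for *Dusp6*, 0.21 for *Spry2*, 0.29 for *Spry4*, 0.42 for *Etv4* and −0.025 for *Etv5*, and no value for *Fos*, which had 0 UMIs in the WT cells called G1. With the Seurat phases, added after the data were seen, *Fgf4* had −0.31, *Dusp6* −0.17 and *Etv4* 0.31. Thinning to 10000 UMIs, in a single random draw, gave −0.0045 for *Dusp6*, from 578 and 747 UMIs, where the mean over cells of CPM gave −0.18. It also left 0 genes at least 1.2-fold lower, as *Fgf4* came to −0.26. Over all genes with at least 500 UMIs, 4.68% were at least 1.2-fold higher, 5.75% at least 1.2-fold lower and 0.361% at least 2-fold apart, and with a minimum of 20 UMIs 2.65% were 2-fold apart. TMM scaling, median scaling and totals without mitochondrial and ribosomal protein genes moved all log2 ratios by 0.0095, 0.0037 and −0.0097. Shares of cells with a UMI differed by construction in the 40 values at another depth (all UMIs, or 5000 per cell), and the mean over all draws left 20 of 20 within the counting interval. Of the r between the genes under alternatives, 328 were classed as the same as the reported r and 32 as moved, all 32 from the log2 of thinned UMIs. *Fgfr2*, *Egr1* and *Fos*, with 98 to 167 UMIs per library, are limited by depth.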
